A study of Mus musculus with 9 samples.

Results

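Of the 9 libraries in the series, 6 are described here: the 3 labelled Au_TCPP and the 3 labelled Control, taken by their titles and fitted without the others. All hold polyadenylated RNA of 4T1, an established mouse mammary carcinoma line, grown in high-glucose medium with serum. Au_TCPP cells had been given Au/Cu-TCPP(Fe)-PEG, a material whose name lists gold, copper and iron, and Control cells had been given medium, with 24 h stated for the treatments. The labels characterise the Au_TCPP cells by a glucose-like oxidase activity and by consumed glutathione (GSH), and Control as normally cultured. The sources used here do not give the dose. The labels do not say whether the 3 libraries of a group came from separate cultures, so the p-values rest on the spread between these libraries alone and that spread may be technical.

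A glucose oxidase turns glucose and oxygen into gluconic acid and hydrogen peroxide, and GSH is the main thiol with which cells remove peroxides. Cells that lose thiols or meet misfolded protein are known to switch on chaperones through heat shock factor 1, antioxidant genes through NRF2, and the integrated stress response, in which the factor ATF4 raises amino acid transport and synthesis while general translation slows. Metals that enter cells are bound by metallothioneins under control of the factor MTF1. The account below takes up the functions beyond heat shock and NRF2, and gives the values of every replicate because Au_TCPP replicate 2 lay further from the other 2 than they lay from each other.

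Of 54532 genes in the table, 13531 had enough counts to be tested, and edgeR's quasi-likelihood test with Benjamini-Hochberg adjustment called 4578 of them higher (33.8%) and 4636 lower (34.3%) in Au_TCPP at an adjusted p under 0.05. Among these, at a change of at least 2-fold, 1812 were higher (13.4%) and 2031 lower (15.0%). All adjusted p-values below are from this test. The 3 Au_TCPP libraries lay wholly above the 3 Control libraries in 4824 genes (35.7%) and wholly below in 5046 (37.3%). Because 68.1% of genes were called, the count of a gene list is read against these shares, and a list near them is not a result about that list. In these bulk libraries fewer cells of a kind and less RNA per cell cannot be told apart.

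Total counts lay between 15477324 and 16638173 per library. Ribosomal protein genes took 6.11 to 6.44% of counts in Control and 9.95 to 10.9% in Au_TCPP, and the 20 most counted genes 7.43 to 7.7% and 12.7 to 13.6%. TMM factors scale for this, and every fold change below is relative to them. Scaled by library totals only, the median over the tested genes moved from -0.014 to -0.42 on the log2 scale, 2533 genes were called higher and 6810 lower, and 27.1% of the calls were higher genes, against 49.7% with TMM factors. Of markers of other cell types, 6 of 15 for macrophages had no read in any of the 6 libraries, with Adgre1, Tyrobp and the C1q genes among them. Summed macrophage markers gave 734 to 804 reads in Control and 1013 to 1353 in Au_TCPP, mostly from Cd68, Cd14 and Mrc1; the part of such cells in the results was not tested. The 14 lymphocyte markers summed to at most 58 reads per library. Fibroblast markers summed to 665 to 741 reads in Control and 381 to 456 in Au_TCPP, mostly from Pdgfra, and endothelial markers to 890 to 1017 and 520 to 613, mostly from Eng. All these marker sums are raw reads. Scaled by TMM factors, the tested fibroblast markers summed to 34.5 to 39.3 CPM in Control and 28.1 to 32.3 in Au_TCPP. The tested endothelial markers summed to 47.1 to 52.3 and 36.2 to 43.2 CPM. Krt8, Krt18 and Epcam, which mark epithelial cells, were high in every library, Krt8 at 791 to 893 CPM in Control and 1188 to 1485 CPM in Au_TCPP. No value is given for Cdh1, which had also been chosen as an epithelial marker. Of 22 keratin and epithelial junction genes tested, 9 rose, 8 fell and 5 missed the threshold, near the shares over all genes.

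**Figure D1:**
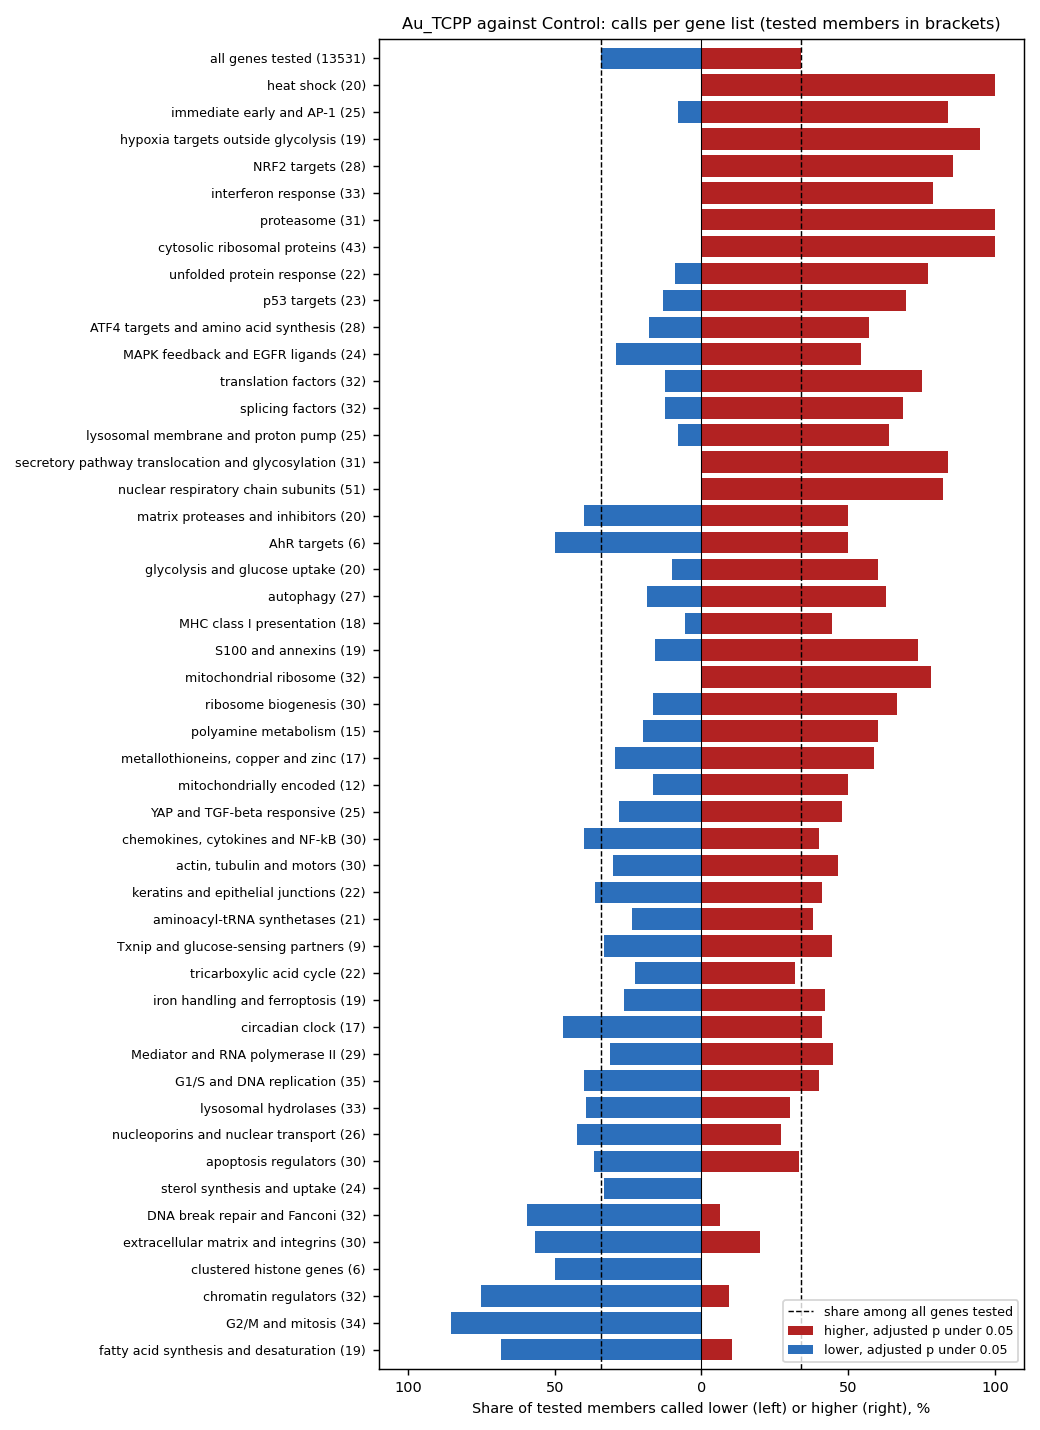
Share of the tested members of each gene list called higher (right, red) or lower (left, blue) in Au_TCPP against Control, in percent, with the number of tested members in brackets and lists ordered by their median log2 fold change; dashed lines mark the shares among all 13531 genes tested. Proteasome and ribosomal protein genes were called higher in every tested member, and lists of mitosis, chromatin regulators and fatty acid synthesis lay at the lower end.

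Outside heat shock, the largest rises among genes of at least 5 CPM (reads scaled to a common effective library total) included those of stress-induced regulators, a cytokine and a keratin. Atf3 (ENSMUSG00000026628 in the file, a stress-induced factor of the ATF family; mm10 chromosome 1, 191170296 to 191218039) stood, in replicates 1, 2 and 3, at 11.6, 11.6 and 13.9 CPM in Control and 1556, 954 and 1563 in Au_TCPP. Atf3 had a log2 fold change of 6.78 ± 0.23 (SE; adjusted p = 4.4e-08). Gadd45g, which encodes a growth arrest and DNA damage response protein, stood at 4.38, 4.06 and 5.26 CPM in Control and 249, 176 and 247 in Au_TCPP. Dusp1, a phosphatase of MAP kinases, stood at 8.29, 10.3 and 8.82 CPM in Control and 438, 339.8 and 467 in Au_TCPP. Dusp1 had a log2 fold change of 5.50 ± 0.16 (SE; adjusted p = 1.2e-08). All 3 genes were lowest in Au_TCPP replicate 2 among the Au_TCPP libraries, and even there far above Control. Il11, an IL-6 family cytokine, was at 0.963, 1.56 and 0.851 CPM in Control and 56.6, 18.5 and 71.9 in Au_TCPP. Il11 had a log2 fold change of 5.43 ± 0.61 (SE; adjusted p = 1.5e-04). Krt16, a stress-inducible keratin, stood at 0.107, 0.104 and 0.213 CPM in Control and 7.51, 2.05 and 12.2 in Au_TCPP. Both were spread widely within Au_TCPP, with replicate 2 below the other 2. The genes of this paragraph were picked among those whose groups did not overlap, so the lack of overlap is not a result. Prdm1, which encodes the transcriptional repressor BLIMP1, was at 0.107, 0.26 and 0.159 CPM in Control and 9.44, 10.4 and 7.19 in Au_TCPP (log2 fold change of 5.62 ± 0.33 (SE), adjusted p = 4.6e-07) and here replicate 2 was the highest.

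Falls did not reach the size of the largest rises. Cyp1b1, a cytochrome P450 and a known target of the aryl hydrocarbon receptor, stood at 51.1, 50.8 and 53.6 CPM in Control and 5.08, 4.37 and 3.75 in Au_TCPP. Cyp1b1 had a log2 fold change of -3.55 ± 0.12 (SE; adjusted p = 4.4e-08). H1f0, the linker histone H1.0, stood at 1588, 1615 and 1737 CPM in Control and 203, 236 and 169 in Au_TCPP. H1f0 had a log2 fold change of -3.02 ± 0.13 (SE; adjusted p = 9.7e-08), the largest fall among genes of at least 100 CPM. Among the other abundant genes with the largest falls were Fgfr2, a fibroblast growth factor receptor, at 221, 210.0 and 219 CPM in Control and 26.9, 45 and 31.2 in Au_TCPP. Thbs1, the matrix protein thrombospondin 1, stood at 585, 567 and 578 CPM in Control and 64.5, 111 and 66.8 in Au_TCPP. Mbtps1, the site-1 protease that cleaves SREBP and ATF6 precursors, stood at 225, 218 and 230.3 CPM in Control and 44.8, 41.3 and 39.1 in Au_TCPP. All 5 genes were picked among genes whose groups did not overlap, so that property is not a result. Replicate 2 was nearest to Control in H1f0, Fgfr2 and Thbs1. Mbtps1 had a log2 fold change of -2.43 ± 0.088 (SE), adjusted p = 4.7e-08.

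Immediate early genes, many of them for transcription factors, which growth factors and stress induce within minutes, were widely higher. Of 25 tested, 21 rose, 2 fell and 2 missed the threshold, with a median log2 fold change of 1.99 against -0.014 over all genes. Jun, the core of the AP-1 complex, stood at 47, 42.4 and 47.6 CPM in Control and 808, 811 and 784 in Au_TCPP. Jun had a log2 fold change of 4.13 ± 0.095 (SE; adjusted p = 5.2e-09), with all Au_TCPP libraries close together. Fos, its partner, stood at 1.66, 2.55 and 2.5 CPM in Control and 80.3, 63.5 and 62.8 in Au_TCPP. Fos had a log2 fold change of 4.94 ± 0.17 (SE; adjusted p = 4.4e-08). The 2 members that fell were Klf2 and Klf9. Klf2 stood at 2.67, 3.54 and 2.82 CPM in Control and 1, 0.776 and 0.375 in Au_TCPP. Klf9 stood at 124, 125 and 133 CPM in Control and 110.2, 86.6 and 117 in Au_TCPP. Their log2 fold changes were -2.05 and -0.28, and the call of Klf9 was lost without any 1 of 5 libraries, Au_TCPP replicate 2 among them (adjusted p = 0.068 without it), so that 22 rose and 1 fell then. The Klf9 call was also lost with RLE factors (adjusted p = 0.0683), with protein-coding genes alone (0.0713), and in the limma and DESeq2 alternatives. Feedback inhibitors and ligands of the receptor and MAP kinase pathway went both ways: 13 of 24 rose, 7 fell and 4 missed the threshold. Risen members included Dusp5, an ERK phosphatase, at 31, 29.6 and 36.7 CPM in Control and 454, 308 and 468 in Au_TCPP. Dusp5 had a log2 fold change of 3.66 ± 0.17 (SE; adjusted p = 1.7e-07). Hbegf, a ligand of the EGF receptor, stood at 68, 67.9 and 72 CPM in Control and 497, 304 and 422 in Au_TCPP. Areg, another ligand, stood at 16.8, 16.2 and 16.1 CPM in Control and 171, 63.5 and 173 in Au_TCPP. Areg and Hbegf were lower in replicate 2 than in the other Au_TCPP libraries. Among the fallen members were 2 receptor genes. Erbb2 stood at 57.2, 55.5 and 60.9 CPM in Control and 22.2, 22.7 and 21.1 in Au_TCPP. Erbb2 had a log2 fold change of -1.40 ± 0.088 (SE; adjusted p = 7.1e-07). Erbb3 stood at 60.4, 64 and 64 CPM in Control and 15.9, 23.8 and 16.3 in Au_TCPP, and the groups overlapped in neither. Esr1, the estrogen receptor, also fell, a call lost with an offset for gene length (log2 fold change of -0.16, adjusted p = 0.42). Its raw reads, not scaled by TMM factors, were 98, 77 and 86 in Au_TCPP and 206, 164 and 192 in Control.

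**Figure D2:**
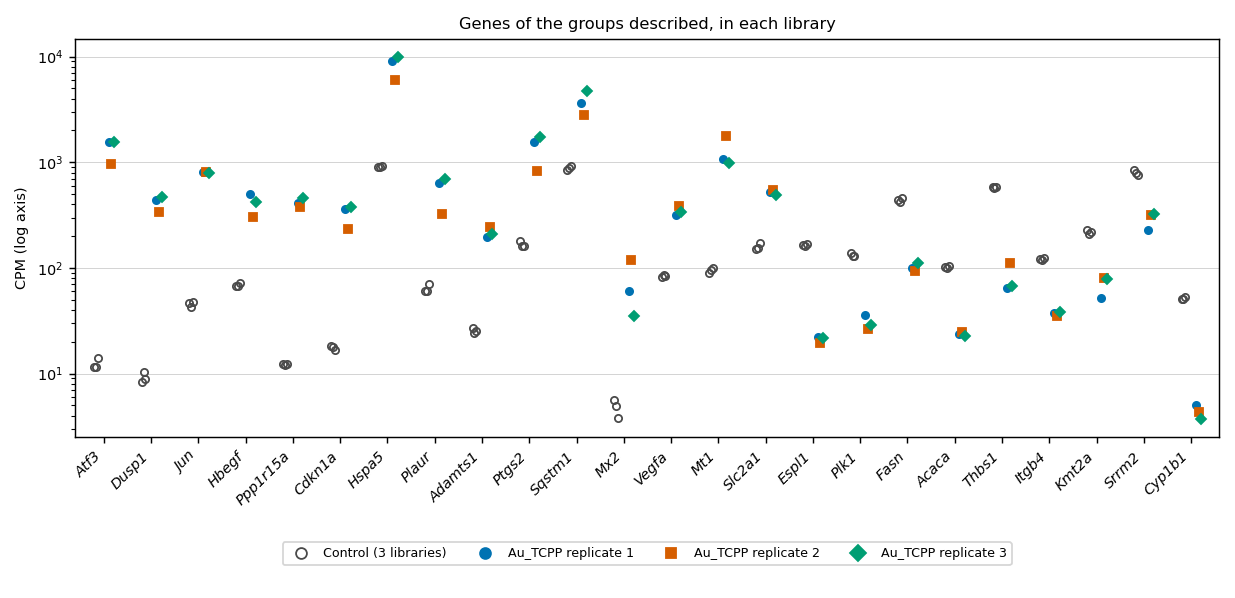
CPM on a log axis for genes named from the groups described, with open circles for the 3 Control libraries and filled symbols for Au_TCPP replicates 1, 2 and 3. For each gene shown the Au_TCPP libraries lie wholly on one side of Control, for example at 954 to 1563 CPM for Atf3 against 11.6 to 13.9 CPM in Control.

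Targets of ATF4 went both ways. In the list, 16 of 28 tested genes rose, 5 fell and 7 missed the threshold (median 0.87), and 21 rose and 5 fell without Au_TCPP replicate 2. The risen members included regulators and stress effectors. Ppp1r15a, which encodes GADD34, the phosphatase subunit that reverses eIF2 alpha phosphorylation, stood at 12.3, 12 and 12.3 CPM in Control and 415, 375 and 461 in Au_TCPP. Ppp1r15a had a log2 fold change of 5.10 ± 0.11 (SE; adjusted p = 5.2e-09). Sesn2, a stress-induced inhibitor of mTORC1, stood at 29.8, 29.2 and 31.1 CPM in Control and 167, 143 and 168 in Au_TCPP. Chac1, an enzyme that degrades GSH, stood at 98.8, 97.7 and 97.8 CPM in Control and 282, 202 and 261 in Au_TCPP. Atf4 itself stood at 334, 321 and 327 CPM in Control and 764, 547 and 669.5 in Au_TCPP. Atf4 had a log2 fold change of 1.01 ± 0.12 (SE; adjusted p = 3.4e-05). Ddit3, which encodes CHOP, read 26.2, 29 and 29.8 CPM in Control and 346, 361 and 349 in Au_TCPP. At 1 end it lies antisense to Mars, and the counting is not stated to use strand. On mm10 chromosome 10 Ddit3 runs to 127296288 and Mars starts at 127296221. Mars fell, from 217, 219 and 210 CPM in Control to 127, 106 and 141 in Au_TCPP. The part of shared reads in the Ddit3 value was not tested. The 5 fallen members were enzymes of amino acid synthesis, Pycr1, Aldh18a1, Shmt2 and Cth, and the amino acid transporter Slc7a5. Pycr1, which makes proline, stood at 52.1, 51.3 and 51.4 CPM in Control and 18.4, 18.9 and 18.4 in Au_TCPP. Pycr1 had a log2 fold change of -1.47 ± 0.085 (SE; adjusted p = 4.5e-07). Aldh18a1, which acts earlier in the same pathway, stood at 270.1, 271 and 263 CPM in Control and 147, 140.4 and 171 in Au_TCPP. In neither gene did the groups overlap. Of 21 cytosolic and mitochondrial aminoacyl-tRNA synthetases, 8 rose, 5 fell and 8 missed the threshold, near the shares over all genes, and the sign of the list's median changed with library totals.

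The C/EBP-ATF response element, searched as TGATGNAA on both strands in the 250 bases before and 50 after each gene's start, was found in 8 of 25 ATF4-list genes with a RefSeq promoter (32%) and in 5 of 13 tRNA synthetases (38.5%). Among the 9514 tested genes with a promoter it was found in 2.67%, and among all 32851 promoters in 3.97%. The promoters of Chac1, which rose, and Pycr1, which fell, are shown because both hold the element. They are the 250 bases before the start on the gene's strand (RefSeq, GRCm38.p6), with the match in capitals, at chr2:119350992-119351241, plus strand for Chac1 and chr11:120643749-120643998, minus strand for Pycr1. A match is a description of letters, not a site in use.
Chac1: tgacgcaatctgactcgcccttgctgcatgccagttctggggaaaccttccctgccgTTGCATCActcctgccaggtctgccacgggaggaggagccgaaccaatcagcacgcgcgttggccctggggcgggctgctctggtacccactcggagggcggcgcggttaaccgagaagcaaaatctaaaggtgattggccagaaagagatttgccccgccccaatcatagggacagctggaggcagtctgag
Pycr1: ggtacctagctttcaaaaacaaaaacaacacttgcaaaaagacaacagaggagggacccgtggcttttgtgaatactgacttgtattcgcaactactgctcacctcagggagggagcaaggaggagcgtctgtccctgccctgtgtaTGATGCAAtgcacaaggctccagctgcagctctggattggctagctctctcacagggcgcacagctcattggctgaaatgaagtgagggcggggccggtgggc

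Most genes of the unfolded protein response of the endoplasmic reticulum (ER) and of the secretory machinery rose. Of 22 unfolded protein response genes 17 rose, 2 fell and 3 missed the threshold (median 1.09), and of 31 genes of translocation, glycosylation and vesicle coats 26 rose, 0 fell and 5 missed the threshold (median 0.61). With library totals alone the latter list had 15 risen and 5 fallen. Hspa5, the ER chaperone BiP, stood at 898, 908 and 923 CPM in Control and 9165, 5959.8 and 9817 in Au_TCPP. Hspa5 had a log2 fold change of 3.19 ± 0.17 (SE; adjusted p = 3.1e-07), with replicate 2 lowest of the Au_TCPP libraries. Dnajb9, an ER J protein, stood at 12.6, 13.9 and 11.9 CPM in Control and 155, 152 and 172 in Au_TCPP. Dnajb9 had a log2 fold change of 3.64 ± 0.10 (SE; adjusted p = 1.1e-08), and its Au_TCPP libraries were close together. Sec61g, a subunit of the translocon channel, was at 34.9, 38.8 and 41.5 CPM in Control and 119.8, 142 and 101 in Au_TCPP. Sec22b, a vesicle fusion protein, stood at 49.9, 52.8 and 53.7 CPM in Control and 120.0, 113 and 135 in Au_TCPP. The fallen members were Sel1l and Ern1. Sel1l, the adaptor of an ER degradation ligase, stood at 82.6, 85.5 and 86.8 CPM in Control and 43.5, 50.2 and 39.9 in Au_TCPP. Ern1, which encodes the sensor IRE1 alpha, stood at 70.7, 70.9 and 72.7 CPM in Control and 41.5, 55.4 and 47.7 in Au_TCPP. Ern1 had a log2 fold change of -0.57 ± 0.11 (SE; adjusted p = 8.7e-04), whose call was lost with the length offset (adjusted p = 0.071).

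All 31 proteasome genes tested rose, with a median of 1.21. Psmb3, a core particle subunit, stood at 116, 123 and 127 CPM in Control and 322, 286 and 347 in Au_TCPP. Psmb3 had a log2 fold change of 1.38 ± 0.097 (SE; adjusted p = 1.3e-06). Psmd8, a regulatory particle subunit, stood at 141, 144 and 151 CPM in Control and 329.5, 324 and 347 in Au_TCPP. Every Au_TCPP library lay above every Control library in all 31 genes, although the list's median in replicate 2, 0.92, was below the 1.3 and 1.4 of replicates 1 and 3. Of 27 autophagy genes 17 rose, 5 fell and 5 missed the threshold (median 0.48), but 12 rose and 10 fell with library totals (median 0.061). Sqstm1, the cargo receptor p62, stood at 838, 875 and 918 CPM in Control and 3680.0, 2789 and 4696 in Au_TCPP. Sqstm1 had a log2 fold change of 2.09 ± 0.16 (SE; adjusted p = 2.5e-06). Gabarapl1, an ATG8 family member of the autophagosome membrane, stood at 51.1, 54 and 51.8 CPM in Control and 256, 177 and 273 in Au_TCPP. Atg12, part of the conjugation system, was at 30.3, 32 and 33.6 CPM in Control and 88.9, 77.9 and 83 in Au_TCPP. Fallen members included the upstream kinase Ulk1, at 70.1, 68.1 and 73.5 CPM in Control and 33.9, 43 and 36 in Au_TCPP. Ulk1 had a log2 fold change of -0.91 ± 0.10 (SE; adjusted p = 2.7e-05). Atg2a, a lipid transfer protein, also fell (85.2, 89 and 99.2 CPM in Control and 33, 37.7 and 39.8 in Au_TCPP). Replicate 2 was the nearest to Control in Sqstm1, Gabarapl1, Atg12 and Ulk1, with no overlap of the groups.

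Of 25 lysosomal membrane and proton pump genes 16 rose, 2 fell and 7 missed the threshold (median 0.63; 16 and 4 without Au_TCPP replicate 2, 12 and 7 with library totals). Of 33 hydrolases and their cofactors 10 rose, 13 fell and 10 missed the threshold, near the shares over all genes (33.8% and 34.3%). Their median of -0.081 was 0.055 without Au_TCPP replicate 3 and -0.27 without replicate 2, when 11 rose and 19 fell. Cd63, a tetraspanin of lysosomes and exosomes, stood at 266, 273 and 303 CPM in Control and 773, 882 and 764 in Au_TCPP. Atp6v1h, a subunit of the proton pump, stood at 26.4, 28.8 and 28.3 CPM in Control and 70.2, 63.1 and 80.6 in Au_TCPP. Among hydrolases, Ctsd, the protease cathepsin D, stood at 80.8, 83.3 and 86.6 CPM in Control and 196, 186 and 213 in Au_TCPP. Ctsd had a log2 fold change of 1.25 ± 0.086 (SE; adjusted p = 1.1e-06). Gla, an alpha-galactosidase, stood at 26.2, 26.6 and 24.9 CPM in Control and 51.3, 61.9 and 61.8 in Au_TCPP. Sgsh and Naglu, which degrade heparan sulfate, both fell. Sgsh stood at 16.5, 18.5 and 20.5 CPM in Control and 4.15, 4.87 and 3.45 in Au_TCPP. Naglu stood at 26.9, 28.8 and 30.7 CPM in Control and 9.22, 12.3 and 8.17 in Au_TCPP. Their log2 fold changes were -2.15 and -1.54, and their groups did not overlap. The CLEAR box, the element bound by TFEB, searched as TCACGTGA (a palindrome that contains the E-box core CACGTG), was found in 5 of 19 membrane and pump genes with a promoter (26.3%) and 3 of 26 hydrolases (11.5%). It was found in 2.25% of tested genes with a promoter and 0.974% of all promoters. Among the other lists it was found in 2 of 8 Txnip partners (25%) and 2 of 13 tRNA synthetases (15.4%). The remaining lists had lower shares than the hydrolases. Here too a match describes letters and not a site in use. The promoter of Ctsd is shown as a risen hydrolase gene that holds it, for the 250 bases before the start at chr7:142387828-142388077, minus strand (RefSeq, GRCm38.p6), with the element in capitals.
Ctsd: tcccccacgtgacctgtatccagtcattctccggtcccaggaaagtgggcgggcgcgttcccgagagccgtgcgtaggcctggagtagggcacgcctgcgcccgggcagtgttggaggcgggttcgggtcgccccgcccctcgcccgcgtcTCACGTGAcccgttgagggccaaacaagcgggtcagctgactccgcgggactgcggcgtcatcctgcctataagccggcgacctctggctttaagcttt

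Most genes of mitosis fell. Of 34 G2/M and mitosis genes 0 rose, 29 fell and 5 missed the threshold (median -0.89), and without Au_TCPP replicate 2 the counts were 2 and 29. Espl1, the separase that cleaves cohesin, stood at 166, 163 and 168 CPM in Control and 22.4, 19.6 and 21.7 in Au_TCPP. Espl1 had a log2 fold change of -2.97 ± 0.087 (SE; adjusted p = 1.3e-08). Plk1, a mitotic kinase, stood at 138, 131 and 129.6 CPM in Control and 36.2, 26.2 and 28.8 in Au_TCPP. Ccnb1, cyclin B1, stood at 185, 193 and 182 CPM in Control and 65.5, 64.7 and 59.6 in Au_TCPP. In none of the 3 did the groups overlap. The G1/S and replication list was near the shares over all genes, with 14 of 35 genes risen, 14 fallen and 7 that missed the threshold, and its median of -0.035 was 0.0045 without Au_TCPP replicate 2. Pcna, the sliding clamp of DNA polymerases, rose (230.4, 222 and 232 CPM in Control and 649.9, 516 and 625 in Au_TCPP). Ccnd1, cyclin D1, fell (512, 478 and 501 CPM in Control and 185, 179 and 184 in Au_TCPP), as did Pole, a replicative polymerase (121, 116 and 116 CPM in Control and 34.4, 32.9 and 34 in Au_TCPP), and the nucleotide synthesis genes Tk1 and Rrm2. Tk1 stood at 232, 233 and 234 CPM in Control and 144, 97.6 and 127 in Au_TCPP. Rrm2 stood at 135, 131 and 139 CPM in Control and 78, 44.9 and 65 in Au_TCPP. Both were lowest in replicate 2. Of 32 genes of DNA break repair 2 rose, 19 fell and 11 missed the threshold, and 5 rose and 19 fell without Au_TCPP replicate 2. Brca2, a gene of homologous recombination, stood at 57.3, 58 and 51.2 CPM in Control and 16.9, 15 and 13.3 in Au_TCPP. Brca2 had a log2 fold change of -1.88 ± 0.11 (SE; adjusted p = 5.3e-07). Mdc1, a scaffold at breaks, stood at 117, 115 and 107 CPM in Control and 29.9, 33.4 and 32.9 in Au_TCPP. Chek1, a checkpoint kinase, rose (49.4, 50.1 and 43.9 CPM in Control and 68.3, 59.9 and 71.1 in Au_TCPP), a call lost with library totals. The repair list's median of -0.49 was -0.17 with an offset for gene length.

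Of 23 tested genes listed as p53 targets, 16 rose, 3 fell and 4 missed the threshold (median 0.94). The part of p53 itself in these changes was not tested. Cdkn1a, the cyclin-dependent kinase inhibitor p21, stood at 18.1, 18 and 16.6 CPM in Control and 361, 235 and 377 in Au_TCPP. Cdkn1a had a log2 fold change of 4.21 ± 0.18 (SE; adjusted p = 1.1e-07). Gadd45b stood at 36.2, 39.8 and 38.5 CPM in Control and 265, 286 and 253 in Au_TCPP. Among the Au_TCPP libraries, replicate 2 was lowest for Cdkn1a and highest for Gadd45b. The 3 fallen targets were Zmat3, Sesn1 and Bbc3. Zmat3, an RNA-binding protein, stood at 42.4, 40.6 and 41.5 CPM in Control and 17.9, 21.7 and 19.9 in Au_TCPP. Bbc3, which encodes the BH3-only protein PUMA, stood at 22.3, 23.6 and 23.1 CPM in Control and 17.2, 16.2 and 17 in Au_TCPP. Sesn2, described above, stands in both the ATF4 and the p53 list. Apoptosis regulators were near the background, with 10 of 30 risen and 11 fallen. Cycs, cytochrome c, stood at 46.6, 53 and 41.3 CPM in Control and 158, 171 and 153 in Au_TCPP. Cycs had a log2 fold change of 1.77 ± 0.10 (SE; adjusted p = 5.2e-07). Mcl1, an inhibitor of cell death, stood at 231, 229 and 241 CPM in Control and 431, 431 and 393 in Au_TCPP. Bcl2, another inhibitor, fell (22.7, 26.6 and 27.2 CPM in Control and 6.86, 8.96 and 9.52 in Au_TCPP), as did Bmf, a BH3-only gene (17.8, 17 and 19.8 CPM in Control and 2.57, 5.01 and 2.02 in Au_TCPP).

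Hypoxia targets outside glycolysis rose in 18 of 19 genes tested (median 1.76), with Hif1a itself the 1 member that missed the threshold. The list's medians in Au_TCPP replicates 1, 2 and 3 were 1.66, 1.94 and 1.65. P4ha2, a collagen prolyl hydroxylase, stood at 13.7, 13.5 and 15.4 CPM in Control and 109.5, 149 and 103 in Au_TCPP. P4ha2 had a log2 fold change of 3.09 ± 0.15 (SE; adjusted p = 1.8e-07). Vegfa, the vascular growth factor, stood at 81.6, 85.1 and 83.3 CPM in Control and 316, 383 and 336 in Au_TCPP. Vegfa had a log2 fold change of 2.05 ± 0.096 (SE; adjusted p = 1.7e-07). Mxi1, an antagonist of MYC, stood at 83.2, 82.4 and 81.2 CPM in Control and 328, 286 and 302 in Au_TCPP. In P4ha2 and Vegfa replicate 2 was the highest library. Glucose uptake and glycolysis followed in part: 12 of 20 genes rose, 2 fell and 6 missed the threshold. Slc2a1, the glucose transporter GLUT1, stood at 151, 154 and 171 CPM in Control and 519.7, 550.1 and 493 in Au_TCPP. Slc2a1 had a log2 fold change of 1.72 ± 0.092 (SE; adjusted p = 3.1e-07). Eno1, an enolase, stood at 1227, 1272 and 1296 CPM in Control and 3834, 3202 and 3479.7 in Au_TCPP. Pfkfb3, whose product stimulates phosphofructokinase, fell (63, 68.9 and 68.7 CPM in Control and 22.1, 35.2 and 23.6 in Au_TCPP), as did Pfkm, a phosphofructokinase subunit (71.5, 77 and 79.2 CPM in Control and 40.0, 47 and 38.6 in Au_TCPP). Gapdh was uneven within both groups, at 185, 248 and 19.6 CPM in Control and 73.4, 115 and 432 CPM in Au_TCPP, and it has many near-identical pseudogene copies. Txnip, which limits glucose uptake and is known to rise with glucose, stood at 349, 397 and 359.5 CPM in Control and 182, 235 and 221 in Au_TCPP. Txnip had a log2 fold change of -0.79 ± 0.11 (SE; adjusted p = 1.2e-04). Arrdc3, a related arrestin, rose (62.1, 60.7 and 57 CPM in Control and 153, 136 and 133 in Au_TCPP).

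The metallothionein genes rose, and were highest in replicate 2. Mt1 (metallothionein 1; mm10 chromosome 8, 94179082 to 94180327) stood at 89.8, 95.5 and 99 CPM in Control and 1076, 1763 and 975 in Au_TCPP. Mt1 had a log2 fold change of 3.75 ± 0.21 (SE; adjusted p = 4.7e-07). Mt2 stood at 1.39, 1.3 and 1.7 CPM in Control and 27.3, 60.0 and 24 in Au_TCPP. Slc30a1, a zinc exporter and known target of MTF1, stood at 7.38, 8.8 and 6.8 CPM in Control and 52.8, 87.7 and 48.3 in Au_TCPP. Slc30a1 had a log2 fold change of 3.04 ± 0.23 (SE; adjusted p = 2.2e-06). In all 3 genes the groups did not overlap. The zinc importers Slc39a14 and Slc39a10 fell. Slc39a14 stood at 115, 105 and 117 CPM in Control and 61.8, 44.2 and 61.2 in Au_TCPP. Slc39a10 stood at 40.9, 40.3 and 34.7 CPM in Control and 23.7, 14.9 and 25.5 in Au_TCPP. In full, 10 of 17 genes of metallothioneins, copper and zinc rose, 5 fell and 2 missed the threshold. In iron handling 8 of 19 rose and 5 fell, near the shares over all genes. Fth1 and Ftl1, the ferritin chains that store iron and are also NRF2 targets, both rose. Fth1 stood at 2463, 2531 and 2682 CPM in Control and 12036, 9616 and 12266 in Au_TCPP. Ftl1 stood at 509.6, 582 and 559 CPM in Control and 2039, 2264 and 2140.2 in Au_TCPP. Ptgs2, cyclooxygenase 2, stood at 182, 161 and 161 CPM in Control and 1542, 835 and 1722 in Au_TCPP. Ptgs2 had a log2 fold change of 3.02 ± 0.24 (SE; adjusted p = 5.8e-06). Gpx4, which reduces lipid hydroperoxides, stood at 491, 515 and 532 CPM in Control and 677, 840.2 and 617 in Au_TCPP (log2 fold change of 0.47 ± 0.12 (SE), adjusted p = 0.0046). Its call was lost with the length offset (adjusted p = 0.2) and with library totals (log2 fold change of 0.068, adjusted p = 0.66). Ireb2, which encodes an iron regulatory protein, fell (99.4, 94.1 and 89.6 CPM in Control and 58.5, 64.8 and 59.9 in Au_TCPP). The medians of both lists changed sign with library totals, to -0.1 and -0.33.

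Most genes of fatty acid synthesis fell, while most of sterol synthesis passed in neither direction. Of 19 fatty acid genes 13 fell, 2 rose and 4 missed the threshold (median -0.98), and 14 fell and 4 rose without replicate 2. Fasn, the fatty acid synthase, stood at 438, 424 and 464 CPM in Control and 99.3, 93 and 111 in Au_TCPP. Fasn had a log2 fold change of -2.13 ± 0.098 (SE; adjusted p = 1.5e-07). Acaca, acetyl-CoA carboxylase, stood at 103, 100.1 and 104 CPM in Control and 23.7, 24.8 and 22.6 in Au_TCPP. Both were tight within Au_TCPP. Scd1, a desaturase, fell (76.4, 83.4 and 85.8 CPM in Control and 38, 30.3 and 39.6 in Au_TCPP), and Me1, the malic enzyme that is also an NRF2 target, rose (99.7, 100.5 and 97.8 CPM in Control and 238, 205 and 257 in Au_TCPP). Of 24 sterol genes 8 fell, 0 rose and 16 missed the threshold, and this list depended on replicate 2: without it 6 rose and 9 fell. A member that fell was Srebf2, the transcription factor SREBP2, at 379, 385 and 392 CPM in Control and 148, 119.9 and 177 in Au_TCPP. Srebf2 had a log2 fold change of -1.38 ± 0.13 (SE; adjusted p = 8.2e-06). The sterol list's medians in replicates 1, 2 and 3 were -0.017, -0.91 and -0.15, and those of the fatty acid list -0.63, -1.37 and -0.63.

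Most genes of the cytosolic ribosome, the nuclear part of the respiratory chain and the mitochondrial ribosome rose. All 43 cytosolic ribosomal protein genes tested rose (median 1.15), with list medians of 1.17, 1.13 and 1.11 in replicates 1, 2 and 3. Single members are uncertain because they share reads with near-identical copies. Of 51 nuclear subunits of the respiratory chain 42 rose, 0 fell and 9 missed the threshold (median 0.61), and with an offset for gene length 30 rose and 5 fell, and with library totals 23 and 8. Cox7c, a subunit of cytochrome oxidase, stood at 93.2, 96 and 91 CPM in Control and 182, 185 and 194 in Au_TCPP. Cox7c had a log2 fold change of 1.00 ± 0.078 (SE; adjusted p = 2.3e-06). Of 32 mitochondrial ribosome genes 25 rose and 0 fell, against 8 risen and 4 fallen with library totals. With the length offset 18 of these rose and 3 fell, and their median went from 0.43 to 0.27. Enzymes of the tricarboxylic acid cycle were nearer to the shares over all genes, with 7 of 22 risen, 5 fallen and 10 that missed the threshold, and with library totals 1 rose and 13 fell. Ogdh, a subunit of oxoglutarate dehydrogenase, fell (138, 133 and 144 CPM in Control and 33.1, 32 and 40.6 in Au_TCPP), as did Idh1, the cytosolic isocitrate dehydrogenase (81.7, 85.1 and 87 CPM in Control and 44.3, 29.3 and 42.4 in Au_TCPP). Idh3b, a subunit of the mitochondrial one, rose (122, 128 and 133 CPM in Control and 199, 192 and 189 in Au_TCPP). The rise count of this list was 12 without Au_TCPP replicate 2 and 4 without Control replicate 1 or 2. Among translation factors 24 of 32 rose and 4 fell, the latter with Eif4ebp2, a repressor of cap-dependent translation, at 174, 166 and 179 CPM in Control and 45.8, 52.3 and 61.4 in Au_TCPP. Eif4ebp2 had a log2 fold change of -1.70 ± 0.11 (SE; adjusted p = 8.3e-07). Eif4g1, the scaffold of the cap-binding complex, stood at 735, 723 and 730.1 CPM in Control and 360.4, 343 and 423 in Au_TCPP. Mitochondrially encoded genes differed by library. They took 2.37% of the counts in Au_TCPP replicate 2 and 1.11 to 1.28% in the other 5 libraries. mt-Co1, a cytochrome oxidase subunit, stood at 5385, 5464 and 5358 CPM in Control and 6391, 14891 and 7602 in Au_TCPP. mt-Co1 had a log2 fold change of 0.83 ± 0.29 (SE; adjusted p = 0.034), and its call was lost without any 1 Control library (adjusted p of 0.068 to 0.083), with library totals (0.247), with the length offset (0.167) and without the filter on low counts (0.203). In replicate 2 it was far above every other library. Of the 12 tested, 6 rose and 2 fell. The counts were 6 and 4 without Au_TCPP replicate 2, 2 and 4 both with library totals and with the length offset, and the sign of the median changed under the latter 2. Without Control replicate 1 or 2 the number risen was 3.

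Most splicing factors rose and most chromatin regulators fell. Of 32 splicing factors 22 rose, 4 fell and 6 missed the threshold (median 0.68). Srsf7 and Srsf3, SR proteins, both rose. Srsf7 stood at 98.7, 93.6 and 93 CPM in Control and 418, 355 and 438 in Au_TCPP. Srsf3 stood at 189.7, 179 and 184 CPM in Control and 679, 588 and 627 in Au_TCPP. Tra2b stood at 122, 119 and 118 CPM in Control and 531, 416 and 579.8 in Au_TCPP. Their log2 fold changes were 2.09, 1.78 and 2.09. Among the fallen members were Srrm2, a large speckle protein, at 850.4, 790.3 and 756 CPM in Control and 227, 317 and 324 in Au_TCPP. Prpf8, the core of the spliceosome, stood at 575, 564 and 559 CPM in Control and 235, 246 and 284 in Au_TCPP. Of 32 chromatin regulators 24 fell, 3 rose and 5 missed the threshold (median -0.88). Kmt2a and Kmt2b, histone H3 methyltransferases, both fell. Kmt2a stood at 230.2, 210.2 and 221 CPM in Control and 52.3, 80.6 and 78.8 in Au_TCPP. Kmt2b stood at 77.6, 74.3 and 75.3 CPM in Control and 16.2, 26 and 18 in Au_TCPP. Arid1a, a subunit of the BAF remodelling complex, stood at 151, 151 and 156 CPM in Control and 57, 71 and 66.5 in Au_TCPP. Their log2 fold changes were -1.64, -1.91 and -1.24. These genes are long, with a median of 11170 nt in the list against 3930 nt over all genes tested.

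Gene length moved with the fold change across all genes. The median log2 fold change was 0.9 for genes up to 500 nt and -0.46 for those over 8000 nt, and the Spearman correlation over the 13531 genes, which are not independent replicates, was -0.32. Averaged over reads, gene length was 5632 to 5754 nt in Control and 4549 to 4669 nt in Au_TCPP. With an offset for this trend the median of the chromatin list was -0.52 (8 risen and 19 fallen), that of the matrix list -0.23 in place of -0.54, and that of mitosis genes -0.75. Its part in these lists beyond those values was not tested.

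**Figure D3:**
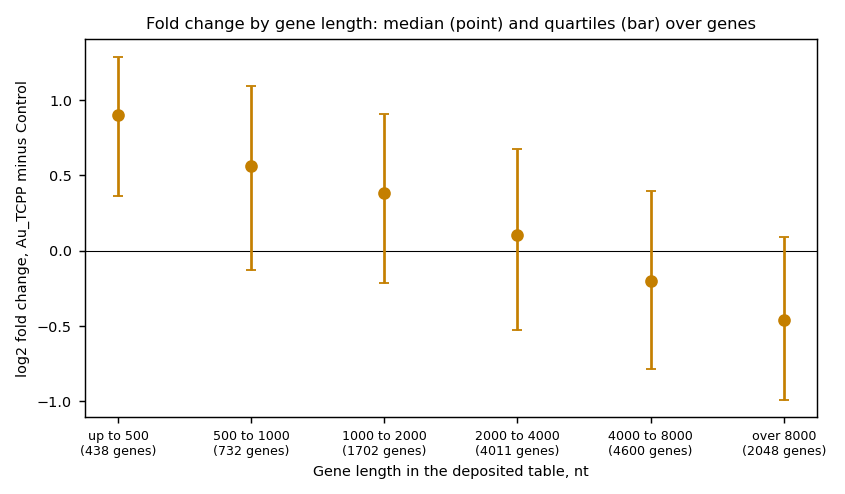
Median (point) and quartiles (bar) of the log2 fold change, Au_TCPP minus Control, for the genes tested in 6 classes of gene length in nt, with the number of genes in brackets. The medians run from 0.9 in the shortest class to -0.46 in the longest.

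Most interferon-response genes rose, and the list was highest in replicate 2. Interferons act through transcription factors that bind the interferon-stimulated response element (ISRE), and the guanylate-binding proteins (GBPs) and immunity-related GTPases answer interferon gamma in particular. Of 33 genes of the list 26 rose, 0 fell and 7 missed the threshold (median 1.62), but without replicate 2 the counts were 25 risen and 4 fallen with a median of 1.12. The list's medians in replicates 1, 2 and 3 were 1.19, 1.84 and 0.92. Ifit1, an antiviral RNA-binding protein, was alike in all Au_TCPP libraries, at 4.49, 3.43 and 3.61 CPM in Control and 27.1, 23.8 and 25.6 in Au_TCPP. Ifit1 had a log2 fold change of 2.73 ± 0.14 (SE; adjusted p = 2.9e-07). Isg15, a ubiquitin-like protein, stood at 15.9, 13.1 and 13.5 CPM in Control and 83.4, 114 and 68.9 in Au_TCPP. Isg15 had a log2 fold change of 2.65 ± 0.18 (SE; adjusted p = 1.0e-06). Mx2, an antiviral GTPase, stood at 5.61, 4.94 and 3.77 CPM in Control and 60.6, 118 and 35.1 in Au_TCPP. Mx2 had a log2 fold change of 3.90 ± 0.48 (SE; adjusted p = 2.4e-04). Usp18, which removes ISG15, stood at 10.2, 9.26 and 10.2 CPM in Control and 27.4, 73.6 and 19.8 in Au_TCPP (log2 fold change of 2.03 ± 0.48 (SE), adjusted p = 0.007; 0.055 with the replicate number as a block and 0.08 without the filter on low counts). In both, replicate 2 was far above the other 2, and all 3 were above Control. Oasl1 went the other way within Au_TCPP, at 18, 19.1 and 18.3 CPM in Control and 107, 58.3 and 107 in Au_TCPP, with replicate 2 lowest.

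Of 18 genes of MHC class I presentation 8 rose, 1 fell and 9 missed the threshold, and 7 rose and 6 fell without replicate 2. B2m, the light chain of MHC class I molecules, stood at 413, 406 and 416 CPM in Control and 973, 1301 and 840.4 in Au_TCPP. B2m had a log2 fold change of 1.33 ± 0.14 (SE; adjusted p = 1.9e-05). Psmb8, an immunoproteasome subunit, stood at 11, 11.3 and 12.3 CPM in Control and 29, 60.4 and 20.2 in Au_TCPP. Psmb8 had a log2 fold change of 1.66 ± 0.37 (SE; adjusted p = 0.005), and its call was lost without the filter on low counts (adjusted p = 0.073). Nlrc5, the transactivator of this set of genes, fell (36.2, 32.1 and 34.7 CPM in Control and 13.2, 16.3 and 13.2 in Au_TCPP). The H2 genes are alike in sequence, and no value of a single one is given. Among genes with at least 5 CPM in Au_TCPP, those in which replicate 2 lay furthest above replicates 1 and 3 were Gbp7, Igtp, Gbp5, Gbp2b, Gbp2, Ifit2, Gbp3 and Psmb9, which were picked for this difference and get no test. Gbp2 stood at 36.9, 40.0 and 39.5 CPM in Control and 78.5, 248 and 48.3 in Au_TCPP. Igtp stood at 7.33, 9.21 and 7.6 CPM in Control and 17.2, 61.4 and 10.9 in Au_TCPP. Gbp2b stood at 28.4, 30.6 and 28.7 CPM in Control and 61.8, 217 and 42.3 in Au_TCPP. In replicate 2 these 3 were several times above every other library, while replicates 1 and 3 were closer to Control. Gbp7 (17.4, 15.7 and 13.1 CPM in Control and 10.0, 43.9 and 8.92 in Au_TCPP) and Ifit2 (24.4, 24 and 19 CPM in Control and 9.94, 40.1 and 10.8 in Au_TCPP) were above Control in replicate 2 and below it in replicates 1 and 3.

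The ISRE, searched on both strands as GAAA, any 2 bases and GAAA, in the same windows, was found in 13 of 23 interferon-list genes with a promoter (56.5%) and 5 of 15 MHC class I genes (33.3%). Among tested genes with a promoter the share was 3.64% and among all promoters 3.44%. The promoters of 3 genes are shown (RefSeq, GRCm38.p6, the 250 bases before the start on the gene's strand, matches in capitals). Isg15, at chr4:156200819-156201068, minus strand, holds 3 overlapping matches. Gbp2b, at chr3:142594597-142594846, plus strand, and Igtp, at chr11:58199306-58199555, plus strand, hold 1 each. All 3 genes were above Control in every Au_TCPP library and highest in replicate 2. Gbp2b and Igtp had been picked for their height in replicate 2, and a link between the number of matches and the values was not tested.
Isg15: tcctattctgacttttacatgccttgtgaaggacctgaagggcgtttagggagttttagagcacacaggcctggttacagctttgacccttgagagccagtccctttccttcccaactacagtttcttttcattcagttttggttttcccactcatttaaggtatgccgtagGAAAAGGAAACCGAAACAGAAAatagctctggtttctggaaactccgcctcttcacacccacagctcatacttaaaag
Gbp2b: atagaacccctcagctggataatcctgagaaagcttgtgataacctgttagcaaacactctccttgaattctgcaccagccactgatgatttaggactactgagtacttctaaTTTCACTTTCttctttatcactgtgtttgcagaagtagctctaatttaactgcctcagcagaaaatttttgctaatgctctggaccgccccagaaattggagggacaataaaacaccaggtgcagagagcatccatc
Igtp: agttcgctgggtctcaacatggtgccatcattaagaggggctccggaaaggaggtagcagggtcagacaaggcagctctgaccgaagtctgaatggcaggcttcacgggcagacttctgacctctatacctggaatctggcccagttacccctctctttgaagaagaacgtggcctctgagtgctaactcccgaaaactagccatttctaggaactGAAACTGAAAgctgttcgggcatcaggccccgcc

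Cytokines and NF-kB genes were near the shares over all genes (33.8% and 34.3%), with 12 of 30 risen, 12 fallen and 6 that missed the threshold. Risen members included Csf2, the growth factor GM-CSF, at 1.44, 1.87 and 2.18 CPM in Control and 27.9, 17.3 and 27.7 in Au_TCPP. Csf2 had a log2 fold change of 3.72 ± 0.24 (SE; adjusted p = 7.7e-07). Ccl5, a chemokine for T cells, stood at 8.18, 8.54 and 9.04 CPM in Control and 38.5, 40.9 and 34.5 in Au_TCPP. Il1a, an alarmin, stood at 56, 53.6 and 51.3 CPM in Control and 176, 129.8 and 169.8 in Au_TCPP. Fallen members included Cx3cl1, the chemokine fractalkine, at 133, 133 and 148 CPM in Control and 27.2, 32.9 and 25.5 in Au_TCPP. Cx3cl1 had a log2 fold change of -2.27 ± 0.11 (SE; adjusted p = 1.8e-07). Csf3, the growth factor G-CSF, stood at 355, 316 and 363 CPM in Control and 168, 169 and 156 in Au_TCPP. Cxcl5, a neutrophil chemokine, stood at 608, 588 and 551 CPM in Control and 98.3, 232 and 80.3 in Au_TCPP. Nfkbia, the inhibitor of NF-kB, stood at 185, 192 and 193 CPM in Control and 77.1, 118 and 69 in Au_TCPP. Both were nearest to Control in replicate 2, and no fallen gene named here overlapped between groups.

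Matrix genes fell in 17 of 30 cases and rose in 6. Lama5, a laminin chain, stood at 2019, 2032 and 2112 CPM in Control and 434, 603 and 616 in Au_TCPP. Lama5 had a log2 fold change of -1.90 ± 0.13 (SE; adjusted p = 1.2e-06). Hspg2, the proteoglycan perlecan, stood at 764, 772 and 797 CPM in Control and 129, 237 and 190.3 in Au_TCPP. Hspg2 had a log2 fold change of -2.07 ± 0.18 (SE; adjusted p = 6.2e-06). Itgb4, the hemidesmosome integrin, stood at 122, 119.8 and 124 CPM in Control and 37.5, 34.9 and 38.3 in Au_TCPP. Itgb4 had a log2 fold change of -1.72 ± 0.079 (SE; adjusted p = 1.5e-07). The risen members included the laminin-332 chains Lamb3, at 227, 241 and 242 CPM in Control and 540.1, 369 and 527 in Au_TCPP, and Lama3, at 81.9, 89.3 and 93.1 CPM in Control and 168, 131 and 152 in Au_TCPP. Genes of pericellular proteolysis and of TGF-beta response went both ways. Plaur, the urokinase receptor, stood at 61, 60.4 and 70.2 CPM in Control and 638, 326 and 690.1 in Au_TCPP. Plaur had a log2 fold change of 3.11 ± 0.26 (SE; adjusted p = 9.3e-06). Adamts1, a matrix protease, stood at 27, 24.3 and 25.1 CPM in Control and 197, 245 and 211 in Au_TCPP. Adamts1 had a log2 fold change of 3.09 ± 0.11 (SE; adjusted p = 4.4e-08), whereas Mmp14, a membrane-bound one, fell (115, 122 and 125 CPM in Control and 53.4, 60.0 and 54.5 in Au_TCPP). Smad7, an inhibitor of TGF-beta signalling, rose (22, 23.8 and 24.5 CPM in Control and 111, 124 and 118 in Au_TCPP), and Ctgf, a YAP and TGF-beta target, fell (39.3, 37.6 and 38.4 CPM in Control and 9.79, 15.4 and 8.99 in Au_TCPP). Plaur was lowest in replicate 2 of the Au_TCPP libraries, and Adamts1 was highest there.

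Au_TCPP replicate 2 was further from replicates 1 and 3 than these were from each other. The root mean square of log2 differences over the genes tested was 0.52 and 0.53 between replicate 2 and replicates 1 and 3. It was 0.41 between those 2 and 0.28 to 0.3 among Control libraries. To the Control libraries it was 1.0 to 1.01 for replicate 2 and 1.09 to 1.11 for replicates 1 and 3. Replicates 1 and 3 averaged at least 1 log2 unit from Control in 4154 genes. Replicate 2 was nearer to the Control mean than that average, or on its other side, in 3054 of them, and further in 1100 (median ratio 0.83). The 4154 genes were picked on replicates 1 and 3, which by itself tends to place a left-out library nearer to Control. No such split was made with replicate 1 or 3 left out, so this one cannot show that replicate 2 changed less. Replicates 1, 2 and 3 lay outside the range of the other 5 libraries in 4515, 4876 and 5287 genes. A library between Control and the rest of its group is never counted there, so that count cannot rank distance from the group. Lists with the largest gap were the interferon response, 1.09 above the mean of replicates 1 and 3 in the median member, mitochondrially encoded genes, 0.76 above, and MHC class I presentation, 0.75 above. The sterol list was 0.69 below and the NRF2 list 0.52 below. Genes furthest below were Krt16, Mrc1, Slc7a11, Il11, Btc, Calr4, Fads2 and Cyp51. Slc7a11, the cystine importer, stood at 36, 34.1 and 33.5 CPM in Control and 131, 45.3 and 200.3 in Au_TCPP. Cyp51, a sterol demethylase, stood at 136, 132 and 141 CPM in Control and 208, 74.1 and 219 in Au_TCPP. In Slc7a11 replicate 2 was nearer to Control than to the other 2, and in Cyp51 it was below Control while the other 2 were above.

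**Figure D4:**
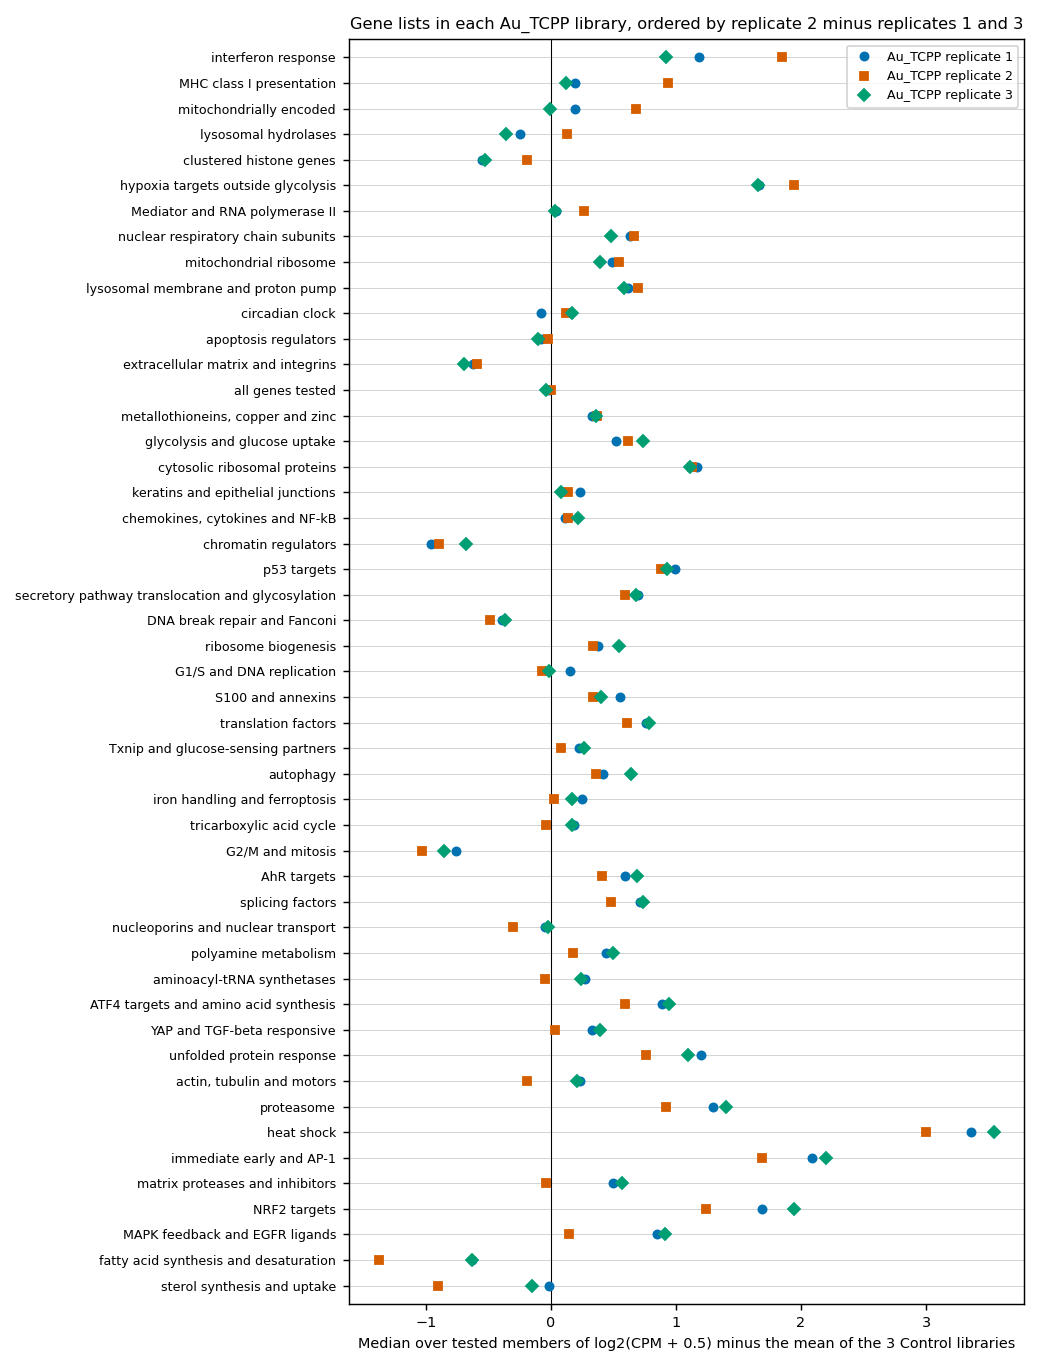
Median over tested members of each gene list of log2(CPM + 0.5) in each Au_TCPP library minus the mean of the 3 Control libraries, with lists ordered by replicate 2 minus replicates 1 and 3. Replicate 2 lies above the other 2 in the interferon list (1.84 against 1.19 and 0.92) and below them in the sterol list (-0.91 against -0.017 and -0.15).

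**Figure D5:**
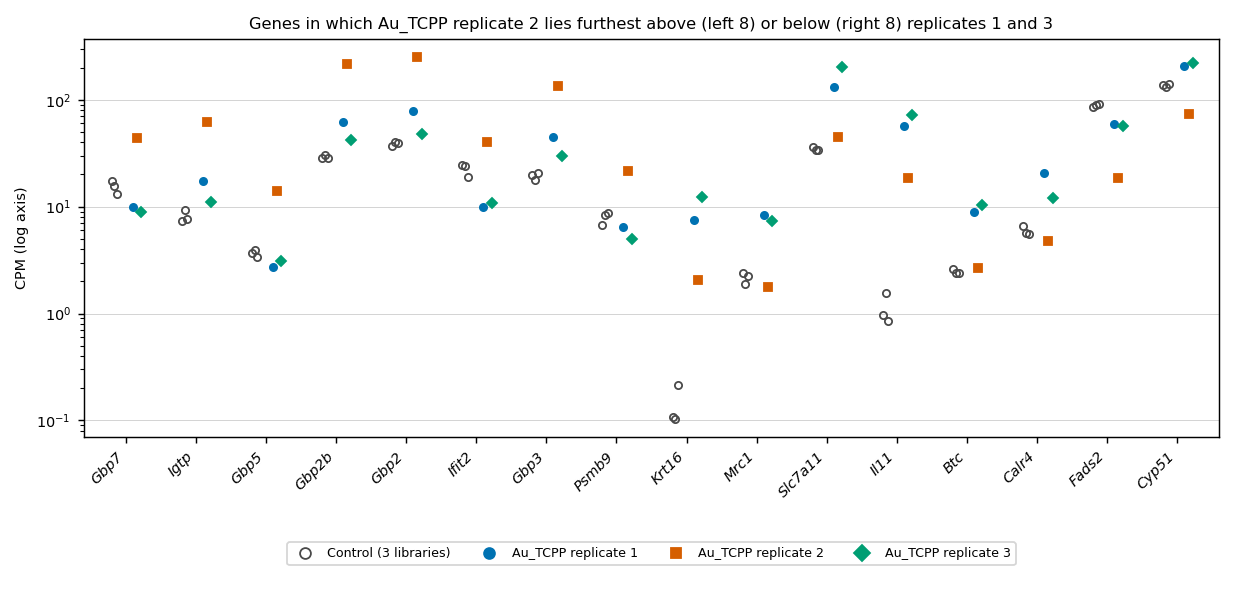
CPM on a log axis in each library for the 8 genes in which Au_TCPP replicate 2 lay furthest above replicates 1 and 3 (left) and the 8 in which it lay furthest below (right). Open circles are Control libraries; Gbp2, for example, was at 248 CPM in replicate 2 and at 78.5 and 48.3 CPM in the other 2.

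The heat shock list had the highest median of all lists, 3.31. All 20 heat shock genes tested rose, with medians of 3.36, 3.0 and 3.54 in replicates 1, 2 and 3. Of 28 NRF2 targets 24 rose and 4 missed the threshold, with medians of 1.69, 1.24 and 1.94, and all 28 rose without replicate 2. Hmox1, which degrades heme, stood at 14.7, 16.1 and 13.1 CPM in Control and 2897, 1933 and 3101 in Au_TCPP. Hmox1 had a log2 fold change of 7.50 ± 0.21 (SE; adjusted p = 1.2e-08).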

How the data were processed

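RNA of 4T1 cells was sequenced on an Illumina HiSeq2000 after library construction with a QIAGEN QIAseq FX Single Cell kit, per the labels' protocols. The submitters' processing notes list HTSeq (no version), Cufflinks 2.1.1, Bowtie 0.12.9 and mm10, with no roles. Use of strand in the counting: not given there. The deposited table holds read counts per gene and library, raw per the file headers. Its FPKM, which the authors derived from counts and gene length per the file headers, carry a further factor per library that the headers do not explain and served only as an alternative. The authors' deposited table also gives log2 fold changes and p-values of a test whose name is not given there.

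The 3 Au_TCPP and 3 Control libraries were fitted alone in edgeR 4.0.16 (R 4.3.3) using filterByExpr, scaling by TMM, robust quasi-likelihood dispersions and Benjamini-Hochberg adjustment over 13531 genes, all tests two-sided. Called means an adjusted p under 0.05. The biological coefficient of variation was 11.6%, with 3 libraries per group. Standard errors were taken as the absolute log2 fold change divided by the square root of F. CPM are scaled by TMM factors. The authors' deposited table calls 4537 genes higher and 4508 lower; 8601 were called in the same direction both there and here, and 0 in opposite directions. In simulated data for 13531 genes, 79% of 100 genes changed 2-fold and 64% of 100 changed 1.5-fold were recovered, with 8 false among 151 calls; this does not test a comparison in which most genes are called. Libraries of a group differed by more than sampling noise (chi-square per gene of 2.61 to 40.2), so none was a duplicate.

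Gene lists (53, marker lists included) and their members were chosen with earlier results of these data known and got no test. Named genes came from a rule. It takes the largest changes, 12 risen and 12 fallen at 5 CPM or more and 10 of each at 100 CPM or more. These were taken only from called genes whose groups did not overlap. It also takes up to 3 risen and 3 fallen members per list with the smallest p, and the 8 genes at each end of replicate 2. Predicted genes, clones and pseudogenes were left out of the largest changes and of the replicate 2 genes. Without the replicate 2 genes it gave 275 genes, and 20 more (Cdkn1a, Sqstm1, Mx2, Fos, Lama5, Hspg2, Chac1, Areg, Kmt2a, mt-Co1, Tk1, Rrm2, Gpx4, Bmf, Nfkbia, Cxcl5, Usp18, Psmb8, Manf and Atf4) were chosen after their values were seen, as were Krt8, Gapdh, Shmt2, Cth and Hif1a. Promoters are RefSeq sequences of GRCm38.p6, matched by symbol for 9514 genes tested. Alternatives were RLE factors, library totals, other filters, a replicate block, all 9 libraries, an offset for gene length (spline, 5 degrees of freedom), only protein-coding genes, leaving out each library, limma 3.58.1 on log2 FPKM, and DESeq2 1.42.0. Tables and figures used Python 3.11.15, numpy 2.4.6, pandas 2.3.3 and matplotlib 3.10.9.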

Additional observations from a re-analysis of the deposited data

How the results depend on the processing

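Counts of called genes lay within 1.5 times the reported ones under every alternative run, except that 2533 genes were called higher with library totals (4578 as reported) and 2122 passed 2-fold with limma on log2(FPKM + 1) (3843 as reported). Leaving out 1 library gave 8139 to 10155 called genes, 4011 to 5042 higher, 4128 to 5113 lower and 3815 to 4314 at 2-fold or more; the highest counts came without Au_TCPP replicate 2. Of the 295 named genes, 3 changed sign under 1 alternative each: Pdhb (-0.018) and Kdm1a (-0.14) with library totals, and Pdgfra (0.056) with the length offset. With library totals 11 more lost their call, and with the length offset 9. The medians of 14 lists changed sign with library totals (tRNA synthetases, metals, iron, Txnip, tricarboxylic acid cycle, mitochondrially encoded, ribosome biogenesis, Mediator, cytokines, YAP, keratins, actin, clock and polyamines) and of 5 with the length offset (mitochondrially encoded, clock, nucleoporins, fibroblast and endothelial markers). With library totals the fallen members of the unfolded protein response and of glycolysis went from 2 to 5, of translation factors from 4 to 8, of splicing factors from 4 to 7 and of ATF4 targets from 5 to 8. The cause was not tested. Groups share replicate numbers, but deviations of same-numbered libraries correlated at only -0.075, 0.033 and -0.0087, so the number pairs nothing known. With the replicate block 8972 genes were called, 4419 higher and 4553 lower, and 1 named gene, Usp18, lost its call. Genes under a few CPM rest on few reads, which limits their folds.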

Other observations

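Clock genes were near the shares over all genes (33.8% higher and 34.3% lower), with 7 of 17 risen and 8 fallen. Their median changed sign with library totals, with the length offset and without Control replicate 1. Nr1d1, the repressor REV-ERB alpha, stood in replicates 1, 2 and 3 at 34.1, 32.7 and 31.7 CPM in Control and 186, 137 and 201 in Au_TCPP. Nr1d1 had a log2 fold change of 2.41 ± 0.14 (SE; adjusted p = 4.2e-07). Nfil3, a repressor of D-box genes, stood at 28.4, 29.9 and 31.6 CPM in Control and 135, 125 and 125 in Au_TCPP. Ciart, a clock repressor, stood at 1.87, 2.13 and 2.45 CPM in Control and 12.2, 12.9 and 18.6 in Au_TCPP. Their log2 fold changes were 2.1 and 2.75. Per1 and Per3, components of the negative limb, both fell. Per1 stood at 68.2, 69.1 and 74.3 CPM in Control and 25.8, 30.0 and 37.6 in Au_TCPP. Per3 stood at 38.6, 40.2 and 39 CPM in Control and 11.7, 15 and 14.3 in Au_TCPP. Groups did not overlap in any of these 5 genes.

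Of 6 tested genes of the aryl hydrocarbon receptor list, Tiparp, Nqo1 and Aldh3a1 rose, of which the latter 2 are also NRF2 targets, and Cyp1b1, Ahr and Arnt fell. Tiparp, a feedback inhibitor of the receptor, stood at 164, 156 and 153 CPM in Control and 559, 429 and 569 in Au_TCPP. Ahr, the receptor, stood at 30.7, 31.7 and 33.1 CPM in Control and 20.3, 19.8 and 22.9 in Au_TCPP. In polyamine metabolism 9 of 15 rose and 3 fell (4 and 5 with library totals). Azin1, which releases ornithine decarboxylase from its antizyme, stood at 237, 232 and 235 CPM in Control and 654, 601 and 657 in Au_TCPP. Sat1, which acetylates spermidine and spermine, stood at 138, 139.9 and 144 CPM in Control and 341, 276 and 409 in Au_TCPP, while the oxidases Paox (11.1, 11.8 and 12.5 CPM in Control and 6.36, 5.22 and 5.92 in Au_TCPP) and Smox (555, 560.1 and 594 CPM in Control and 402, 377 and 382 in Au_TCPP) fell. Of 19 S100 and annexin genes 14 rose and 3 fell, but 7 rose with library totals, and 9 rose and 4 fell with the length offset. S100a10, a partner of annexin A2, stood at 409, 446 and 449 CPM in Control and 1079, 761 and 1029.8 in Au_TCPP (log2 fold change of 1.14 ± 0.13 (SE), adjusted p = 2.7e-05), and S100a11 fell (595, 620.0 and 601 CPM in Control and 429.9, 405 and 375 in Au_TCPP).

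Of 30 actin, tubulin and motor genes 14 rose and 9 fell, beside 33.8% higher and 34.3% lower over all genes. With library totals 6 rose and 14 fell, and the list's median went from 0.2 to -0.22, so no shift of this list is read from the counts. Tpm4, a tropomyosin, stood at 296, 305 and 304 CPM in Control and 743, 681 and 655 in Au_TCPP. Tubb2a, a beta tubulin, stood at 25, 28.6 and 26.2 CPM in Control and 106, 76 and 101 in Au_TCPP. Fallen members included Myh10, non-muscle myosin IIB, at 324, 334 and 327 CPM in Control and 117, 107 and 136 in Au_TCPP. Dync1h1, the dynein heavy chain, stood at 834, 862 and 856 CPM in Control and 383, 429 and 496 in Au_TCPP. Nucleoporins were near the shares over all genes, with 7 of 26 risen and 11 fallen, and Nup210, a membrane nucleoporin, stood at 61.8, 57.7 and 54.4 CPM in Control and 10.4, 12.8 and 11.6 in Au_TCPP (log2 fold change of -2.32 ± 0.11 (SE), adjusted p = 1.7e-07). In ribosome biogenesis 20 of 30 rose and 5 fell (10 and 9 with library totals). Nop58, a core protein of box C/D particles, stood at 124, 117 and 107 CPM in Control and 392, 318 and 479 in Au_TCPP (log2 fold change of 1.77 ± 0.14 (SE), adjusted p = 2.9e-06), and Polr1a, the largest subunit of RNA polymerase I, fell (98.4, 98.6 and 101 CPM in Control and 46.2, 52.2 and 53.1 in Au_TCPP). Of 29 genes of RNA polymerase II and Mediator 13 rose and 9 fell, beside the same shares over all genes. With library totals 7 rose and 14 fell, and the median went from 0.038 to -0.36, so no shift of this list is read from the counts either. Med7, Polr2g and Polr2h rose, with log2 fold changes of 1.82, 1.33 and 0.88. Polr2a, the largest subunit of RNA polymerase II, fell (249, 243 and 250.3 CPM in Control and 106, 138 and 106 in Au_TCPP), as did the Mediator subunits Med1 and Med12.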
